A study of Penicillium oxalicum with 10 samples.

Results

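The flbE deletion was set directly against the flbB deletion in mycelia of the mould Penicillium oxalicum, whose secreted enzymes break down plant cell walls. Genes entered the comparison when their mean over the 10 libraries of the series was at least 1 RPKM (read count per kilobase of coding length and per megaread of the library), which kept 9134 of 9859 listed genes. The comparison uses 2 of the 10 libraries, 1 from each deletion strain, and no wild type enters the difference. Each strain is a single library, so no value has a replicate error, no test across samples was possible, and no p-value is given.

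FlbB is a basic leucine zipper transcription factor and FlbE a small fungal protein. In Aspergillus both sit together at the tip of the growing hypha and depend on each other to stay there, and FlbB also moves back to nuclei. Together with FlbD they act upstream of BrlA, the zinc finger protein that starts the formation of conidia, the asexual spores. AbaA and WetA act after BrlA in the making and ripening of conidia. This is background from Aspergillus and not a result of these libraries.

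The 2 libraries compared are labelled flbE deletion and flbB deletion. The other 8 libraries are labelled as deletions of flbD, wetA, abaA, flbA, flbC, stuA and swi6, and as the wild type M12. All 10 cultures were treated alike per the labels: 20 h of preculture from conidia in a modified Czapek medium containing 2% glucose at 30 °C, then 48 h of growth after a move to fresh medium. The labels do not state how the deletions were made, the number of transformants, or whether the deletion strains descend directly from M12. The material is described as mycelia, and the labels give no count of conidiophores or conidia in it. In bulk samples such as these, fewer cells of a kind and less RNA per cell cannot be told apart.

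Depth was close in the pair, with 7.26 megareads assigned to genes in the flbE deletion and 6.89 megareads in the flbB deletion, and all 10 libraries had at least 3.10 megareads. At these depths, 3 reads on a gene of 1000 bases are worth 0.413 RPKM in the flbE deletion and 0.435 RPKM in the flbB deletion. Reads were found on 9447 genes in the flbE deletion and 9445 genes in the flbB deletion. The 10 most abundant genes of each library took 13.3% of its reads in the flbE deletion and 12.8% in the flbB deletion. In the library labelled flbD deletion, PDE_03008, annotated as FlbD, still had 327 RPKM. In the library labelled abaA deletion, PDE_02932, which carries the product name transcriptional enhancer factor and so belongs to the same TEA family as AbaA, had 59.1 RPKM. The values go against those labels, for PDE_02932, which was picked with its values in view, only if it is the AbaA gene, so statements on these libraries below hold for them as labelled.

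The 2 deletions gave closely similar transcriptomes. On the scale of log2(RPKM + 1), 236 of the 9134 genes (2.58%) lay at least 2-fold apart. Of these, 81 (0.887%) were higher and 155 (1.7%) were lower in the flbE deletion than in the flbB deletion. No gene (0%) was at least 4-fold higher in the flbE deletion, while 15 genes (0.164%) were at least 4-fold lower. The median difference over all genes was 0.01 and the median absolute difference 0.20. At the looser mark of 1.5-fold, 992 genes (10.9%) lay apart.

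**Figure D1:**
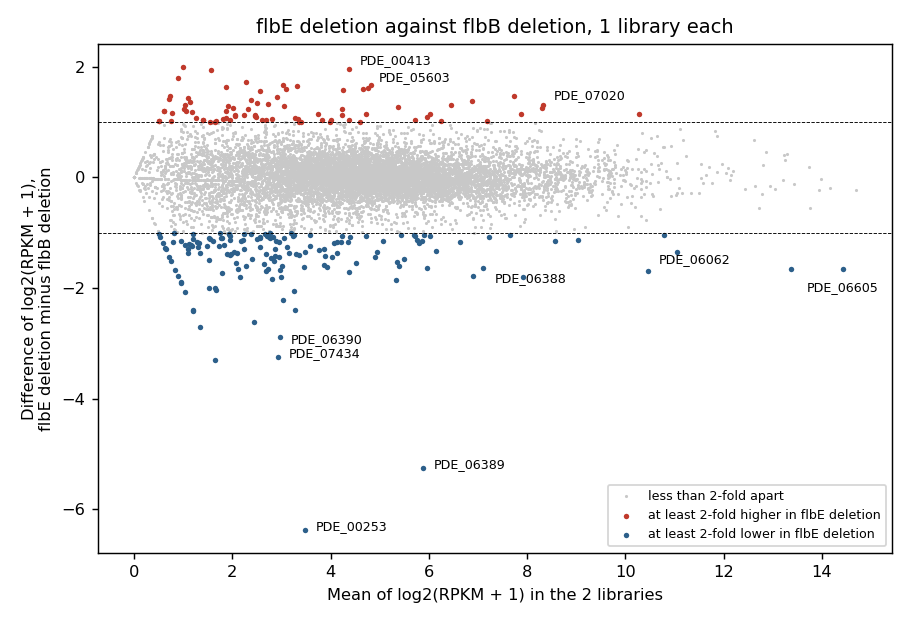
Difference of log2(RPKM + 1), flbE deletion minus flbB deletion (vertical axis), against the mean of log2(RPKM + 1) in the 2 libraries (horizontal axis) for 9134 genes. Each point is 1 gene, dashed lines mark 2-fold, and colours mark the 81 genes higher and the 155 genes lower in the flbE deletion. Differences ranged from -6.37 to 2.00, and PDE_00253 and PDE_06389 lay far below the remaining genes.

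Many of the genes past 2-fold were weakly expressed. Among 1575 genes with a mean under 5 RPKM in the pair, 6.48% were past 2-fold, against 1.06% of the 3487 genes between 20 and 100 RPKM and 1.52% of the 1385 genes at 100 RPKM or more. Genes past 2-fold had a median coding length of 444 bases, against 1176 bases over all genes kept. An informative product name was given for 25 of the 236 genes (10.6%), against 37.7% of all genes kept. A stricter count took genes whose 95% counting interval of the RPKM ratio lay wholly beyond 2-fold. It held 47 genes (0.515%), of which 17 (0.186%) were higher and 30 (0.328%) lower in the flbE deletion. Ranges in parentheses after a fold below are such exact intervals, which cover counting error only and leave out the spread between cultures.

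No gene in the deposited annotation is named flbB or flbE, so the deletions could not be read by gene name. The widest difference of all belonged to PDE_00253, a gene of 618 coding bases with no product name. It had 1 read in the flbE deletion (0.223 RPKM), against 427 reads in the flbB deletion (100.3 RPKM). That is 450.1-fold lower in the flbE deletion (80.4 to 17819). In the other 8 libraries it had between 15.1 RPKM in the flbA deletion and 106 RPKM in the wetA deletion. Its reads covered 8.09% of its length in the flbE deletion and 99.8% in the flbB deletion, and at least 83.2% in each of the other libraries. The genes with the adjoining locus numbers were level: PDE_00252 had 25.2 RPKM in both deletions, and PDE_00254, named as the sigma subunit of the AP-2 endocytic adaptor, had 61.0 RPKM in the flbE deletion and 69.9 RPKM in the flbB deletion. These neighbours were chosen after their values were seen. Whether PDE_00253 is the deleted gene was not tested, since the files give it no name.

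A search by coverage over all genes kept gave 2 genes whose covered part in the flbE deletion was at least 50 points below that in every other library. They were PDE_00253 and the short gene PDE_00738 (270 bases), which had 0 reads in the flbE deletion and 8 reads in the flbB deletion, at least 2.81-fold lower when 3 reads stand in for none. No gene met the mark of 50 points in the flbB deletion. The widest such gap there was 26.4 points, at PDE_05428. This search therefore did not find the gene lost through the flbB deletion. It would miss a deleted gene that is poorly covered in any other library, or only partly deleted. The same mark was met by 5 genes in wild type, 428 in the flbA deletion, 3 in the stuA deletion and 2 in the swi6 deletion. Like the flbB deletion, the flbC, flbD, wetA and abaA deletions had 0. Meeting the mark is thus no sign of a deleted gene by itself.

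The list of conidiation regulators matched 3 genes, of which 2, BrlA and FlbD, passed the filter. Both were under 2-fold apart between the deletions. BrlA (PDE_00087), the activator of conidiation, had 70.8 RPKM in the flbE deletion and 85.2 RPKM in the flbB deletion, a difference of -0.26. As a ratio of RPKM it was 1.20-fold lower in the flbE deletion (1.08 to 1.34). In the flbD, wetA and abaA deletions it had 86.7 RPKM, 105 RPKM and 107 RPKM, and in wild type 248 RPKM. The FlbD-named gene, a Myb-type partner of FlbB in Aspergillus, had 253 RPKM in the flbE deletion and 260.3 RPKM in the flbB deletion, a difference of -0.04. PDE_02932, the TEA-family gene above, had 17.1 RPKM in the flbE deletion and 16.0 RPKM in the flbB deletion. BrlA and FlbD belong to a list of 22 genes chosen with the values of both deletions against wild type known. Of the 22, none was at least 2-fold higher in the flbE deletion and 1, PDE_06605, was at least 2-fold lower, where 2.58% of all genes were past 2-fold either way, and their differences ran from -1.66 to 0.99.

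Among pigment and polyketide genes, PDE_09236, PDE_09237 and PDE_09239 were near the limit of detection in both deletions. The scytalone dehydratase PDE_09236, an enzyme of melanin synthesis, had 1 read in each. The polyketide synthase PDE_09237 had 7 reads in the flbE deletion and 2 reads in the flbB deletion, a ratio of 3.32 (0.632 to 32.8). The tetrahydroxynaphthalene reductase PDE_09239 had 3 reads in the flbE deletion and 9 reads in the flbB deletion. Other pigment genes were expressed well above that limit. The second scytalone dehydratase, PDE_04496, had 155 RPKM in the flbE deletion and 195 RPKM in the flbB deletion. The naphtho-gamma-pyrone polyketide synthase PDE_09491 had 16.0 RPKM in the flbE deletion and 13.2 RPKM in the flbB deletion.

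A run of 5 consecutive locus numbers, PDE_06388 to PDE_06392, was lower in the flbE deletion throughout. It was the longest of the 13 runs of at least 2 adjoining genes past 2-fold in 1 direction. PDE_06388, named as subunit D of translation initiation factor eIF3, had 77.5 RPKM in the flbE deletion and 243 RPKM in the flbB deletion, 3.14-fold lower (2.92 to 3.37). The other 8 libraries ranged from 56.6 to 98.3 RPKM. The flbE deletion therefore lay among them and the flbB deletion above all of them.

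PDE_06389, which has no product name, was the most unequal well-counted gene of the run. It had 88 reads and 8.55 RPKM in the flbE deletion, against 3574 reads and 366 RPKM in the flbB deletion. That is 42.8-fold lower in the flbE deletion (34.7 to 53.5). The deletions of flbD, wetA and abaA had 13.8 RPKM, 9.51 RPKM and 16.8 RPKM, close to the flbE deletion. The swi6 and flbC deletions had 402 RPKM and 379 RPKM, close to the flbB deletion, and wild type had 78.8 RPKM.

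The remaining genes of the run carry no product name. PDE_06390 had 3 reads in the flbE deletion and 31 reads in the flbB deletion, a ratio of 0.0918 (0.0180 to 0.294). PDE_06391 had 1333 RPKM in the flbE deletion and 3410.3 RPKM in the flbB deletion, and values of the other libraries reached 5545 RPKM in the stuA deletion. PDE_06392 had 128 RPKM in the flbE deletion and 448 RPKM in the flbB deletion, where the other 8 ranged from 28.6 to 229 RPKM. So the flbB deletion was above every other library at PDE_06388, PDE_06390 and PDE_06392, and inside their range at PDE_06389 and PDE_06391.

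The genes that flank the run, chosen after their values were seen, were mostly level. PDE_06387 had 45.8 RPKM in the flbE deletion and 54.9 RPKM in the flbB deletion. PDE_06393 had 85.7 RPKM in the flbE deletion and 96.2 RPKM in the flbB deletion. One step further out, PDE_06386 was 2.69-fold lower in the flbE deletion (2.11 to 3.44), with 7.57 RPKM against 20.3 RPKM in the flbB deletion. PDE_06385 and PDE_06394 had differences of 0.12 and 0.32. Locus numbers give the order of names in the annotation, and distances between these genes were not used here.

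**Figure D2:**
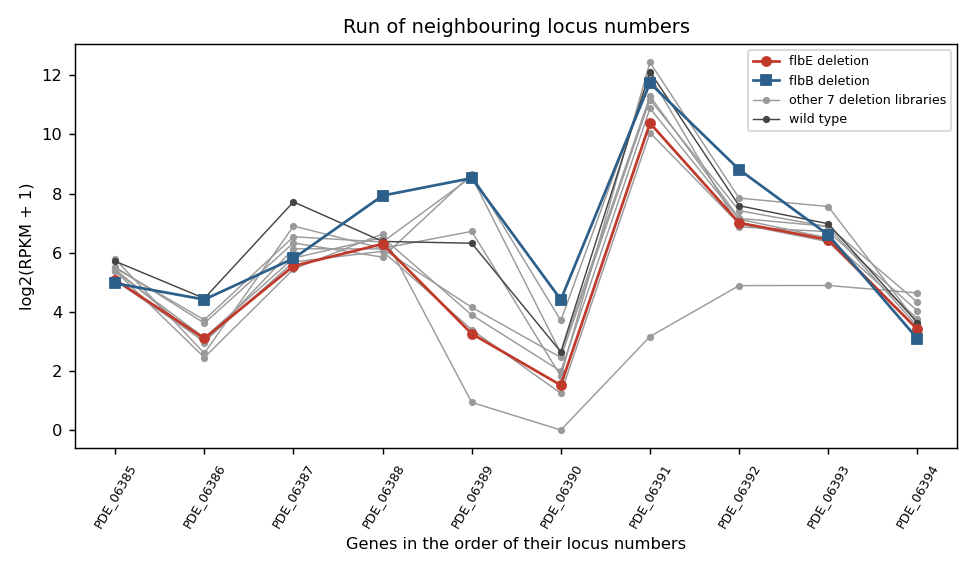
log2(RPKM + 1) (vertical axis) of 10 genes in the order of their locus numbers (horizontal axis), with 1 line per library. The flbB deletion lies above the flbE deletion from PDE_06388 to PDE_06392 and at PDE_06386, and the 2 lines are close at PDE_06385, PDE_06387, PDE_06393 and PDE_06394.

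A second run, of 3 genes without product names, was also lower in the flbE deletion. PDE_07163, whose coding length of 18189 bases is far above the median, had 26.3 RPKM in the flbE deletion and 74.5 RPKM in the flbB deletion, 2.84-fold lower (2.73 to 2.95). PDE_07165 had 5.08 RPKM in the flbE deletion and 15.0 RPKM in the flbB deletion, 2.94-fold lower (2.46 to 3.54). The short gene between them, PDE_07164, had 5 reads and 15 reads in the flbE and the flbB deletion. The flbE value of PDE_07163 was near those of the flbD (35.5 RPKM), wetA (29.9 RPKM) and abaA (21.5 RPKM) deletions, and the flbB value was near the 82.6 RPKM of wild type. The remaining 11 runs held 2 genes each, 4 of them higher and 7 lower in the flbE deletion.

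Of the named genes that reached 10 RPKM in either deletion, 8 were past 2-fold on the lower side, PDE_06388 included. Methylisocitrate lyase (PDE_06062), which splits methylisocitrate in the breakdown of propionyl-CoA, had 789 RPKM in the flbE deletion and 2540 RPKM in the flbB deletion. It was 3.22-fold lower (3.12 to 3.32), from 5625 reads and 17170 reads. Values elsewhere were spread widely, from 27.8 RPKM in the flbC deletion to 5601 RPKM in wild type, so both deletions lay inside the range of the other 8. A second gene with the same product name, PDE_05337, was level at 14.6 RPKM in the flbE deletion and 11.9 RPKM in the flbB deletion. So was 2-methylcitrate dehydratase (PDE_03501), an enzyme of the same pathway, at 124 RPKM in the flbE deletion and 103 RPKM in the flbB deletion. Both were looked up after the value of PDE_06062 was seen.

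Cysteine dioxygenase (PDE_04527), which oxidises cysteine to cysteine sulfinate, had 1240 RPKM in the flbE deletion and 2538 RPKM in the flbB deletion, 2.05-fold lower (1.98 to 2.11). The wetA and abaA deletions had 3196 RPKM and 3029 RPKM, nearer to the flbB deletion. The flbD deletion had 1546 RPKM, nearer to the flbE deletion, and wild type had 164 RPKM. A sugar:H+ symporter (PDE_03140), a permease for sugar uptake, had 23.1 RPKM in the flbE deletion and 68.2 RPKM in the flbB deletion, 2.96-fold lower (2.58 to 3.40). It ranged from 1.06 RPKM in the swi6 deletion to 1074 RPKM in the flbA deletion among the others. Another symporter with that name, PDE_00197, had 776 RPKM in the flbE deletion and 818 RPKM in the flbB deletion.

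Ribonuclease T1 (PDE_01330), a secreted enzyme that cuts RNA after guanine, had 7.65 RPKM in the flbE deletion and 25.7 RPKM in the flbB deletion, 3.36-fold lower (2.03 to 5.78). The flbE value was the lowest of all 10 libraries and wild type had the highest, 415 RPKM. An alcohol dehydrogenase (PDE_09616) had 8.35 RPKM in the flbE deletion and 21.9 RPKM in the flbB deletion. Linoleate 8R-lipoxygenase (PDE_06706), which makes oxylipin signals from linoleic acid in moulds, had 29.1 RPKM in the flbE deletion and 61.1 RPKM in the flbB deletion, 2.10-fold lower (1.92 to 2.31). The tRNA-specific adenosine deaminase PDE_02744, which converts adenosine to inosine in tRNA, had 12.1 RPKM in the flbE deletion and 26.1 RPKM in the flbB deletion. Intervals of the last 3 genes reached below 2-fold.

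The other 4 of the 12 lowest named genes were under 2-fold on the log2(RPKM + 1) scale. Catalase PDE_05708, which breaks down hydrogen peroxide, had 9.16 RPKM in the flbE deletion and 17.9 RPKM in the flbB deletion, and no other library was above 11.6 RPKM. Carnitine O-acetyltransferase (PDE_00666), which shuttles acetyl groups between compartments, had 109 RPKM in the flbE deletion and 208 RPKM in the flbB deletion. An ABC transporter of the multidrug type (PDE_05517) and a protein N-terminal amidase (PDE_09583) had differences of -0.94 and -0.90.

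On the higher side, a protein kinase led the named genes. PDE_05603, one of 3 genes named p38 MAP kinase, the class of stress-activated kinases, had 46.7 RPKM in the flbE deletion and 14.6 RPKM in the flbB deletion. It was 3.21-fold higher (2.60 to 3.99). The flbD and wetA deletions had 44.8 RPKM and 42.6 RPKM, near the flbE deletion, and the abaA deletion had 70.4 RPKM. Wild type had 2.37 RPKM and the stuA deletion 152 RPKM. The other genes of that name were level: PDE_00126 had 214 RPKM in the flbE deletion and 236 RPKM in the flbB deletion, and PDE_02510 had 18.3 RPKM in the flbE deletion and 23.3 RPKM in the flbB deletion. The adjoining gene PDE_05602, annotated by GO term as a sequence-specific DNA-binding transcription factor, was also higher, with 32.2 RPKM in the flbE deletion and 10.1 RPKM in the flbB deletion, 3.18-fold higher (2.31 to 4.44). PDE_05602, PDE_00126 and PDE_02510 were chosen after the value of PDE_05603 was seen.

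Alanine-glyoxylate transaminase (PDE_07020), which turns glyoxylate into glycine, had 507 RPKM in the flbE deletion and 203 RPKM in the flbB deletion, 2.50-fold higher (2.36 to 2.65). The other 8 libraries ranged from 51.0 RPKM in wild type to 189 RPKM in the flbD deletion. Both deletions were above all of them, and the flbE deletion stood more than 2-fold above the flbB deletion. A putative chitinase (PDE_01573), of the enzymes that cut wall chitin, had 350.4 RPKM in the flbE deletion and 158 RPKM in the flbB deletion, 2.22-fold higher (2.09 to 2.36). The flbD and wetA deletions had 145 RPKM and 164 RPKM, near the flbB deletion, and the abaA deletion had 409 RPKM, nearer to the flbE deletion. The stuA deletion had 4896 RPKM and wild type 11.0 RPKM.

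Further named genes were higher in the flbE deletion by smaller steps. Transketolase PDE_00194, of the pentose phosphate pathway, had 74.8 RPKM in the flbE deletion and 35.6 RPKM in the flbB deletion, 2.10-fold higher (1.89 to 2.34), and the flbB value lay below all other libraries. The succinyl-CoA synthetase beta subunit PDE_01111, of the citric acid cycle, had 19.3 RPKM in the flbE deletion and 8.80 RPKM in the flbB deletion. Glucose-6-phosphate isomerase (PDE_03736), of glycolysis, had 41.4 RPKM in the flbE deletion and 21.1 RPKM in the flbB deletion, a difference of 0.94. The NADP-dependent glutamate dehydrogenase PDE_06117, which assimilates ammonium, had 11.0 RPKM in the flbE deletion and 5.01 RPKM in the flbB deletion, against 827 RPKM in the highest other library. Sulfate adenylyltransferase (PDE_01576), the first enzyme of sulfate assimilation, had 41.2 RPKM in the flbE deletion and 21.7 RPKM in the flbB deletion, which was below all other libraries. On the log2(RPKM + 1) scale PDE_00194 and PDE_01111 were past 2-fold, and all 5 genes had interval bounds below 2-fold. The 12 highest named genes also held PDE_00678, PDE_03846 and PDE_07780, with differences of 0.95, 0.96 and 0.92, and PDE_03670, given below. The flbE values of PDE_00678 (120 RPKM) and PDE_03846 (26.5 RPKM) lay above all other libraries.

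**Figure D3:**
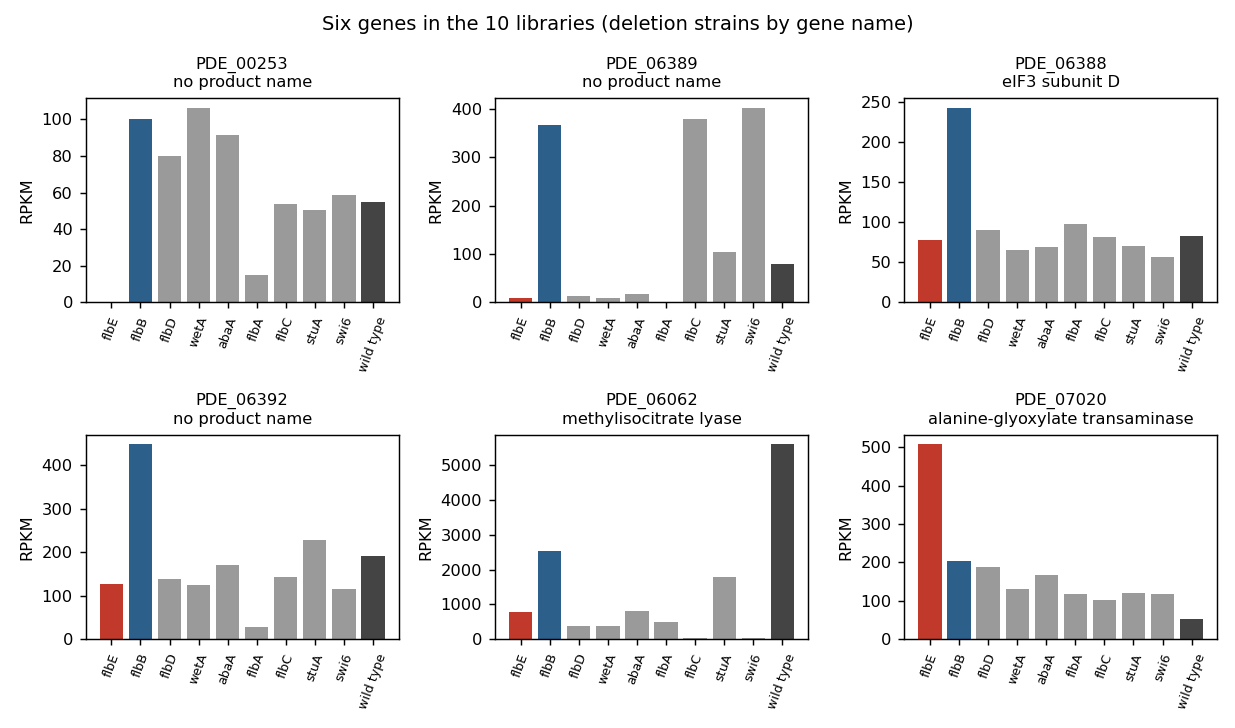
RPKM (vertical axes, each from 0) of 6 genes in the 10 libraries, with the flbE deletion in red, the flbB deletion in blue, the other deletions in grey and wild type in dark grey. PDE_00253 is near 0 only in the flbE deletion, PDE_06388 and PDE_06392 are highest in the flbB deletion, and PDE_07020 is highest in the flbE deletion.

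Genes without a product name made up most of the differences. Among those that reached 10 RPKM in either deletion, the widest on the higher side was PDE_00413, with 39.8 RPKM in the flbE deletion and 9.47 RPKM in the flbB deletion, 4.20-fold higher as a ratio of RPKM (2.77 to 6.58). PDE_00663 had 49.5 RPKM in the flbE deletion and 14.9 RPKM in the flbB deletion, and PDE_03319 had 43.1 RPKM in the flbE deletion and 13.5 RPKM in the flbB deletion. All of these values lay inside the range of the other 8 libraries. On the lower side, PDE_07434 had 1.48 RPKM in the flbE deletion and 22.5 RPKM in the flbB deletion, 15.1-fold lower (9.51 to 25.5), where wild type had 380 RPKM and the stuA deletion 0.239 RPKM.

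At high abundance, PDE_06605 took 0.471% of all reads in the flbE deletion and 1.49% in the flbB deletion, with 12369 RPKM against 39181 RPKM. It was 3.17-fold lower (3.13 to 3.21). The flbD and abaA deletions had 13193 RPKM and 20076 RPKM, while the wetA deletion had 42456 RPKM, next to the flbB deletion. The nearby short gene PDE_06607 (108 bases) had 5997 RPKM in the flbE deletion and 18950 RPKM in the flbB deletion, 3.16-fold lower (3.06 to 3.27). Among these 5 libraries both genes had the same order from low to high: the flbE, flbD, abaA, flbB and wetA deletions. PDE_06072, PDE_06351 and PDE_05672 were the most abundant of the 17 genes higher by the interval count that have no name. They had 1833 RPKM, 489 RPKM and 352 RPKM in the flbE deletion, against 829 RPKM, 205 RPKM and 126 RPKM in the flbB deletion. GO terms give PDE_05672 oxidoreductase and acyltransferase activities. These genes and PDE_06607 were chosen after their values were seen.

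GO terms describe a few more of the 30 genes lower by the interval count. PDE_08920, annotated as a calcium-dependent cysteine endopeptidase, had 10.5 RPKM in the flbE deletion and 36.6 RPKM in the flbB deletion, 3.48-fold lower (2.95 to 4.12). PDE_00383, annotated with ATPase activity, had 10.6 RPKM in the flbE deletion and 25.2 RPKM in the flbB deletion. The adjoining pair PDE_06239 and PDE_06240 had 63.7 RPKM and 12.3 RPKM in the flbE deletion, against 222 RPKM and 37.9 RPKM in the flbB deletion. The adjoining pair PDE_00508 and PDE_00509 had 1.44 RPKM and 2.80 RPKM in the flbE deletion, against 6.73 RPKM and 16.7 RPKM in the flbB deletion, where wild type had 551 RPKM and 1563 RPKM. All of these genes were named after their values were seen.

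The 28 gene lists, taken by text patterns in the annotation, had medians near that of all genes. They hold 1186 genes, of which 6 were at least 2-fold higher and 2 at least 2-fold lower in the flbE deletion, against 0.887% and 1.7% of all genes tested. The patterns match product names, and named genes were past 2-fold less often than all genes. Of the 3443 named genes kept, 12 were at least 2-fold higher and 13 at least 2-fold lower. In 20 of the 28 lists, many of them short, no member passed 2-fold, which is read against the 2.58% of all genes. Of the list medians, 21 lay between -0.1 and 0.1, against 0.01 for all genes tested. List medians ran from -0.24 to 0.24. A list is a description here and carries no test.

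FlbB and FlbE meet at the hyphal tip in Aspergillus. The list of polarity, cytoskeleton and hyphal tip genes had 50 members, none past 2-fold, and a median difference of 0.01. With 2.58% of all genes past 2-fold, a count of 0 in 50 is near the share over all genes. Its lowest member was the dynein heavy chain PDE_07514, the motor that moves cargo along microtubules, with 14.9 RPKM in the flbE deletion and 22.3 RPKM in the flbB deletion. Beta-tubulin PDE_00677 had 232 RPKM in the flbE deletion and 155 RPKM in the flbB deletion. In the list of G-protein, kinase and Ras signalling, 1 of 68 members passed 2-fold, the kinase PDE_05603, and the median was 0.00. The 38 transcription factors had a median of 0.00 and none past 2-fold. That list does not hold PDE_05602, which has a GO term but no product name for its pattern to match. Its lowest member was the transcriptional regulator PDE_00251, at 17.1 RPKM in the flbE deletion and 27.7 RPKM in the flbB deletion.

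Of wall and polysaccharide enzymes, the share past 2-fold is read against the 2.58% of all genes and the 25 of 3443 named genes. For the chitin and hemicellulase lists it was near the share of all genes and above that of named genes, on counts of only 2 and 1. Of 69 genes of chitin and wall glucan metabolism, 2 were higher in the flbE deletion, the chitinase PDE_01573 and the chitin deacetylase PDE_02470, and none was lower. PDE_02470 rested on 8 reads in the flbE deletion and 1 read in the flbB deletion, a ratio of 7.59 (1.02 to 337). Of 65 hemicellulase genes, the arabinofuranosidase PDE_09995 alone passed 2-fold, with 11 reads in the flbE deletion and 1 read in the flbB deletion. Of 18 pectinase genes, the pectin lyase PDE_01467 alone passed, with 18 reads in the flbE deletion and 3 reads in the flbB deletion. The 25 cellulase and beta-glucosidase genes had a median of 0.08 and the 13 amylolytic genes a median of 0.16, none past 2-fold. The amylase PDE_01201 had 198 RPKM in the flbE deletion and 296 RPKM in the flbB deletion. The glucoamylase PDE_09417, which releases glucose from starch, had 163 RPKM in the flbE deletion and 113 RPKM in the flbB deletion.

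In lists of metabolism and transport at most 1 member was past 2-fold, and these counts are also read against the 2.58% of all genes. Of 62 genes of glycolysis, fermentation and the citric acid cycle, the alcohol dehydrogenase PDE_09616 was past 2-fold, lower in the flbE deletion. That list does not hold PDE_01111, PDE_00194 or PDE_03736, whose names its pattern did not match. Of 83 genes of mitochondrial respiration, the cytochrome c oxidase assembly gene PDE_03670 was past 2-fold, higher with 25 reads in the flbE deletion and 11 reads in the flbB deletion. The symporter PDE_03140 was the sole member past 2-fold in the lists of 7 sugar transporters and of 34 multidrug and ABC transporters, which share it. The pattern of the latter list also took in sugar symporters such as PDE_03140, so no gene named as a multidrug or ABC transporter in it passed. Among 49 genes of ion and metal transport, the copper transporters PDE_05328 and PDE_08756 and the ferric-chelate reductase PDE_08755 had the lowest differences, -0.87, -0.81 and -0.75. The Na+-exporting ATPase PDE_03497 had 1011 RPKM in the flbE deletion and 1629 RPKM in the flbB deletion. Outside that list, the plasma membrane H+-ATPase PDE_01674, which drives nutrient uptake and is among the most abundant genes, had 4843 RPKM in the flbE deletion and 2713 RPKM in the flbB deletion, a difference of 0.84.

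The list with the highest median was oxidative stress defence, at 0.24 over 39 genes, of which 31 lay above 0 and 8 below. Of all 9134 genes kept, 4648 lay above 0. None of the 39 members passed 2-fold, where 2.58% of all genes and 25 of the 3443 named genes did. Cytochrome c peroxidase (PDE_05494), which removes hydrogen peroxide in mitochondria, had 185 RPKM in the flbE deletion and 115 RPKM in the flbB deletion. Gamma-glutamyltranspeptidase PDE_04490, which breaks down glutathione, had 99.3 RPKM in the flbE deletion and 62.1 RPKM in the flbB deletion. Catalase PDE_05708 and the glutathione S-transferase PDE_09253, with differences of -0.90 and -0.71, were among the members that went the other way. The nitric oxide dioxygenase PDE_01345, which detoxifies nitric oxide, had 8676 RPKM in the flbE deletion and 6301 RPKM in the flbB deletion.

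Lists of protein synthesis and turnover were shifted little. The 92 genes of ribosome biogenesis had a median of -0.13 with 71 below 0, where 48.8% of all genes lay below 0. Their lowest member was UTP20 (PDE_06986, named U3 small nucleolar RNA-associated protein 20), with 12.4 RPKM in the flbE deletion and 21.6 RPKM in the flbB deletion. The 41 proteasome genes had a median of -0.08 with 29 below 0, and the 122 ribosomal protein genes a median of 0.07 with 79 above 0. No gene of these 3 lists passed 2-fold, where 2.58% of all genes and 25 of the 3443 named genes did. The chaperones ClpB (PDE_00624) and Hsp70 (PDE_02379) had 3236 RPKM and 11056 RPKM in the flbE deletion, against 3127 RPKM and 8343 RPKM in the flbB deletion. The list with the lowest median, -0.24, was cytochrome P450, of 6 genes. The 3 most different of them had at most 22 reads in either deletion.

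**Figure D4:**
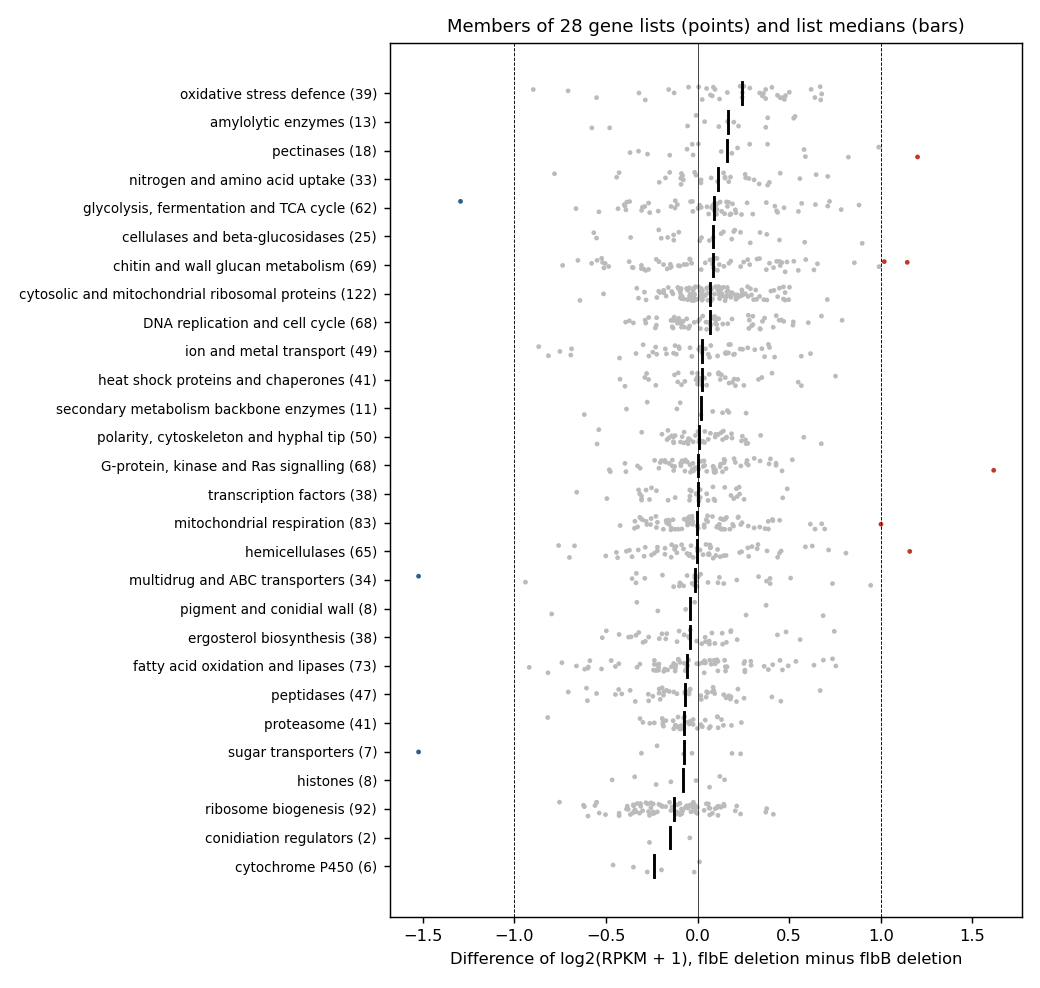
Difference of log2(RPKM + 1), flbE deletion minus flbB deletion (horizontal axis), for each member (points) of 28 gene lists (rows, number of members in parentheses), with list medians as black bars and 2-fold as dashed lines. Members higher in the flbE deletion are red and members lower are blue. Medians ran from -0.24 to 0.24 and few members passed 2-fold.

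Set beside the other libraries, the 2 deletions were the closest of the 45 pairs by the number of genes past 2-fold. The flbE deletion had the library labelled flbD deletion next, at 398 genes apart, and then the wetA deletion, at 697. For the flbB deletion the order was the other way round, with 503 genes apart from the wetA deletion and 674 from the library labelled flbD deletion. From wild type, 2933 genes lay apart in the flbE deletion and 3202 in the flbB deletion. The flbE deletion had fewer genes apart than the flbB deletion from the flbD, flbA, flbC, stuA and swi6 deletions and from wild type. From the wetA and abaA deletions it had more.

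**Figure D5:**
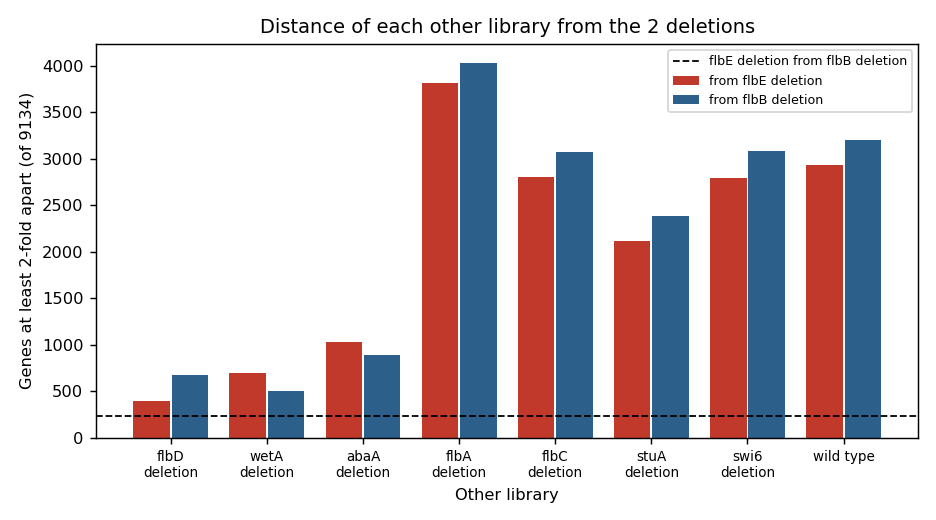
Number of genes at least 2-fold apart of 9134 (vertical axis, from 0) between each of the other 8 libraries (horizontal axis) and the flbE deletion (red) or the flbB deletion (blue). The dashed line marks the 236 genes between the 2 deletions themselves. Red bars are shorter for the flbD deletion and blue bars for the wetA and abaA deletions.

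For most genes past 2-fold, neither deletion was extreme. Of the 81 genes higher in the flbE deletion, the flbE value was above all of the other 8 libraries in 10 and the flbB value was below all of them in 20. Of the 155 lower genes, the flbE value was below all others in 17 and the flbB value above all others in 38. The library labelled flbD deletion lay nearer to the flbE than to the flbB deletion at 60 of the 81 higher and 84 of the 155 lower genes, and at 59.0% of all genes kept. The wetA deletion lay nearer to the flbE deletion at 41 of the 81 higher and 47 of the 155 lower genes, and at 45.7% of all genes kept. For the abaA deletion this held at 49 of the 81 and 43 of the 155, and at 48.5% of all genes kept. Against the median of the flbD, wetA and abaA libraries, the flbE value was the nearer at 52 of the 81 higher and 47 of the 155 lower genes. With a pseudocount of 0.1 these counts were 129 of 200 and 78 of 279, a similar split. With median-of-ratios scaling they were 42 of 85 and 78 of 173. With a pseudocount of 5 they were 8 of 19 and 26 of 52. So the split on both sides depended on the processing. The difference itself chose these genes, and the counts carry no test. For values outside the other 8 libraries, and for the median of the flbD, wetA and abaA libraries, no share over all genes kept was computed. Those counts therefore cannot be set against a background.

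Few of the 9134 genes stood at least 2-fold from all 9 other libraries. Such a gene must also be 2-fold apart within this close pair, which keeps the counts low. The flbE deletion had 2 above and 3 below, and the flbB deletion 3 above and 2 below. The flbD, wetA and abaA deletions had 7, 12 and 18 above and 1, 1 and 0 below. The flbC deletion had 133 above and 10 below, and wild type 204 above and 117 below. In the flbE deletion, PDE_07020 and PDE_07025 stood above, and PDE_00253, PDE_00738 and PDE_02930 stood below. PDE_07025 had 41 reads in the flbE deletion and 12 reads in the flbB deletion, 4.58 RPKM against 1.41 RPKM, and at most 1.71 RPKM elsewhere. In the flbB deletion, PDE_06388, PDE_08285 and PDE_02069 stood above, and PDE_03277 and PDE_00215 stood below. PDE_08285 had 4 reads in the flbE deletion and 25 reads in the flbB deletion, and PDE_02069 had 12 reads in the flbE deletion and 37 reads in the flbB deletion. Apart from PDE_00253, PDE_06388 and PDE_07020, all of these genes had at most 41 reads in either deletion.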

How the data were processed

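Per the labels, total RNA of mycelia was sequenced by standard Illumina library protocols, and the series calls the method digital gene expression tag profiling. CASAVA 1.8 is named in the submitters' processing notes. The aligner, the build and the annotation release were not given in the sources used here. The authors deposited, per the file headers, 3 values per gene and library: the count of unique reads, the RPKM, and the percent of the gene that reads cover. The sum of counts equalled the header's total in all 10 libraries, and RPKM values worked out anew from them differed by a relative gap of at most 2.57e-08. Lengths are whole multiples of 3 for 9856 of 9859 genes and so are coding lengths. A dash was read as 0.

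From these values the difference of log2(RPKM + 1), flbE deletion minus flbB deletion, was computed for genes with a mean of at least 1 RPKM over the 10 libraries. The pseudocount of 1 shrinks differences of weak genes. With 1 library per strain no count model or test was run. Genes were counted at 2-fold and 4-fold on that scale. RPKM ratios have exact conditional (Clopper-Pearson) 95% intervals from the reads. A library with 0 reads was set to 3 reads to give a nominal fold, which is not an interval bound. Reads carry no molecular identifiers, so intervals cover counting error only.

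Genes named came from fixed sets, of which not every member is printed. The first held the 12 highest and 12 lowest that have a product or KEGG name and reach 10 RPKM in either deletion. Genes without a name gave the 5 highest and 5 lowest at that same minimum. Further sets were the 3 most different members of each list and genes at least 2-fold from all 9 other libraries. The last were runs of at least 3 adjoining locus numbers, the 22 genes given with BrlA, and the most abundant genes. Any other gene is marked as chosen with its values in view. The comparison, members, gene lists and alternatives were chosen with earlier results of these data known, and list patterns were corrected after their matches were seen. The reference gene table matched 0 of the locus numbers, so no sequence is shown. Python 3.11.15, pandas 2.3.3, scipy 1.17.1, R 4.3.3 and edgeR 4.0.16 (for TMM factors) were used, and the scripts were tested on simulated data. Alternatives were pseudocounts of 0.1 and 5, no filter or one at 5 RPKM, a filter on the pair alone, scaling by TMM, by median-of-ratios size factors or by totals without the 10 genes with the most reads, and the interval count.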

Additional observations from a re-analysis of the deposited data

How the results depend on the processing

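Weak genes set most of the counts. With a pseudocount of 0.1, 479 genes lay at least 2-fold apart, 200 higher and 279 lower in the flbE deletion, with 31 higher and 58 lower at 4-fold, and 13 genes were below all other libraries in the flbE deletion and 16 in the flbB deletion. With a pseudocount of 5, 71 genes lay apart, 19 higher and 52 lower, with 3 lower at 4-fold; 1 gene was above and 1 below all others in the flbE deletion, and 0 were below in the flbB deletion. A filter at 5 RPKM left 148 genes apart, of which 90 were lower, with 9 lower at 4-fold. Median-of-ratios scaling gave 2 genes higher at 4-fold, and 5 genes above all others in the flbE deletion and 6 in the flbB deletion. Totals without the 10 most read genes also gave 2 genes higher at 4-fold. The interval count gave 17 higher and 30 lower, 47 in all. Of the 236 genes past 2-fold, 232 were also past it with TMM scaling and 235 with median-of-ratios scaling. The pair ranked 1 of 45 with both pseudocounts and with median-of-ratios scaling, the settings for which it was computed. No named gene past 2-fold changed direction under these settings. Of the 50 genes past 2-fold among those examined singly, 16 were under it with a pseudocount of 5, among them PDE_00194, PDE_01111, PDE_02744, PDE_06706 and PDE_07165, and PDE_03670 was also under it with TMM scaling (0.99). The cytochrome P450 median ran from -0.43 with a pseudocount of 0.1 to -0.09 with 5. No paired analysis was possible because each strain has 1 library, and for the same reason no library could be left out. Depth limits genes near 3 reads, such as the pigment genes PDE_09236 and PDE_09239, and the spread between cultures of 1 strain is unknown.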
